A study of Homo sapiens with 16 samples.

Results

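The extracellular matrix and osteoblast genes described here are a list of 40 genes fixed by name: 15 collagen chains, 4 laminin chains, other matrix glycoproteins and proteoglycans, enzymes that modify or crosslink collagen, and a few regulators and products of bone-forming cells. The list was chosen with earlier results of these data known. Shares of members beside those of all genes are therefore a description and no support. All 40 were found by symbol among the 28207 human genes of the files. The cells are U2OS, an established human osteosarcoma line, that is, a tumour line of bone-forming origin. RNA was sequenced in 16 libraries, 2 for each of 8 groups, and each group carries a genotype label that joins a number (zdna1 to zdna4) to an arm (CC or CL). The labels do not say what the numbers or the arms stand for, name no treatment or time, call no group a control, and do not say whether the 2 libraries of a group come from separate cultures. P-values therefore measure the spread between these libraries, which may be technical. The series title links its question to MYC, FACT and Z-DNA. Each library was counted against the human genome plus 1 added contig of its own number, whose reads are not analysed here.

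Matrix proteins are secreted, and collagens are built from 3 polypeptide chains that wind into a triple helix after hydroxylation in the endoplasmic reticulum. Type I collagen, the main protein of bone, is normally a mix of COL1A1 and COL1A2 chains, whereas type IV collagen, laminins and perlecan form basement membranes. Osteoblasts start from the transcription factor RUNX2 and go on to make alkaline phosphatase (ALPL), osteopontin (SPP1) and osteocalcin (BGLAP) as they mineralise their matrix.

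Reads in human genes ran from 39335 to 310187 per library, so that 1 read was worth 3.22 to 25.4 CPM (a level per library, corrected for how many human reads it holds) and the zdna3 and zdna4 CC libraries were the shallowest. The zdna4 CC libraries stood apart: reads in 401 olfactory receptor genes, normally silent outside the nose, came to 1449 and 1492 CPM there and to 55.3 to 396 CPM in the other 14 libraries. Endothelial markers (PECAM1, CDH5, VWF, KDR, TEK) summed to 270 and 211 CPM there and to 95.3 CPM or less elsewhere. These sums rest on few reads: over both zdna4 CC libraries TEK had 7, VWF 6, KDR 3, PECAM1 2 and CDH5 0. Epithelial, haematopoietic, neural and muscle markers summed to at most 108 CPM in any library, a value of the epithelial markers in zdna4 CC replicate 1. None of these or of the endothelial markers reached the mean of 50 CPM needed for a test. Mesenchymal and osteoblast-like markers summed to 2564 to 4203 CPM, mostly from VIM, COL1A1 and SPARC (means of 1593, 881 and 804 CPM). CDH2 averaged 116 CPM, whereas COL1A2, RUNX2, ALPL, SPP1 and CDH11 averaged 7.13 to 27.8 CPM, too low for a test. Differences between arms in zdna4 rest on the zdna4 CC libraries, and their part in those results was not tested. The averaged and unequal arm differences are given below also over zdna1 to zdna3, and differences among the numbers also in CL libraries alone.

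The list was dominated by a few secreted proteins. Per kilobase of exon, the mean level over the 16 libraries was highest for SPARC (osteonectin, a collagen-binding glycoprotein of bone) at 233 CPM per kb, followed by FN1 (fibronectin) at 186, COL1A1 at 149 and TNC (tenascin C) at 91.8. The other members were led by PLOD1, a lysyl hydroxylase, at 57.2 CPM per kb. The members together took 0.784 to 1.06% of the human reads of a library. That share was 0.857 ± 0.00576% (SD, n = 2) in zdna1 CC and 1.03 ± 0.0385% in zdna1 CL, 0.841 ± 0.00979% and 0.785 ± 0.00187% in zdna2, 0.901 ± 0.00316% and 1.04 ± 0.0266% in zdna3, and 0.835 ± 0.0195% and 0.951 ± 0.0112% in zdna4, CC first in each pair. The lowest share was thus in zdna2 CL and the highest in zdna3 CL and zdna1 CL, and in zdna1, zdna3 and zdna4 both CL libraries lay above both CC libraries. Each share rests on 323 to 2925 member reads in a library, so counting error can exceed an SD of 2 libraries.

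**Figure D1:**
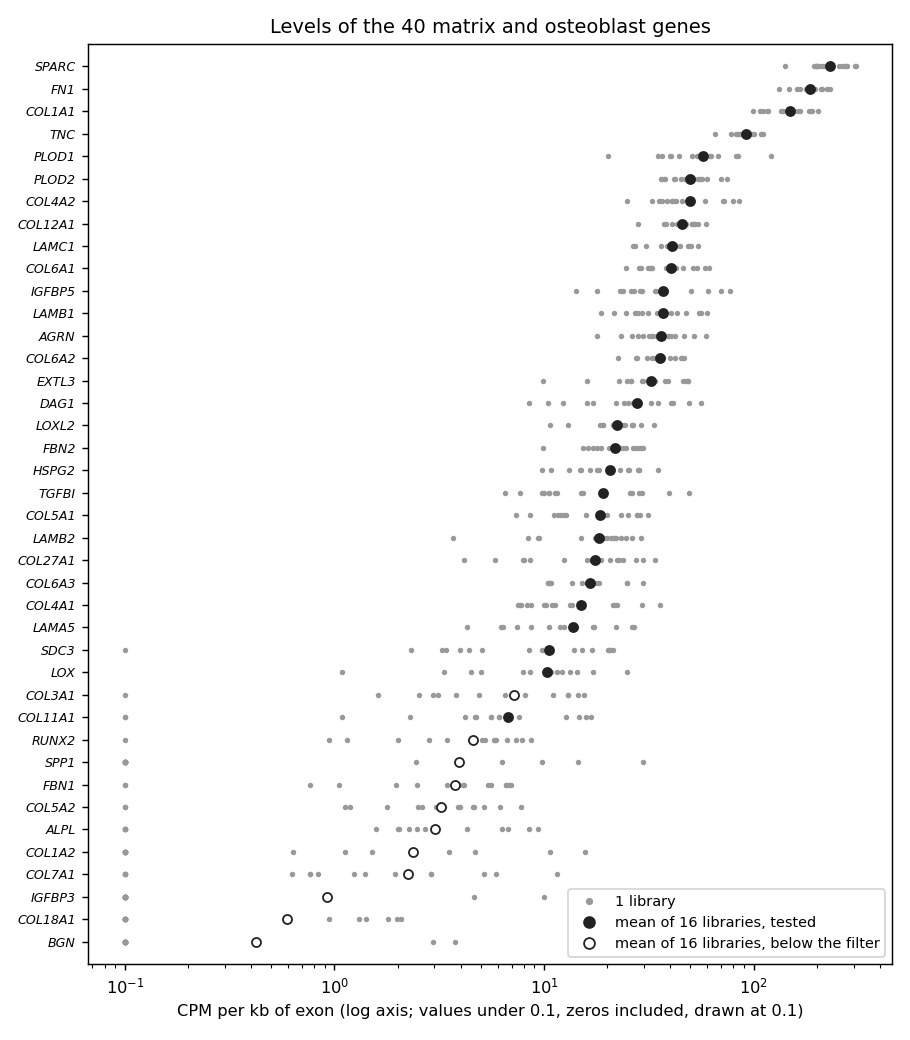
Level of each of the 40 genes in CPM per kb of exon on a log axis, with grey dots for the 16 libraries, filled circles for the means of tested genes and open circles for the means of genes below the filter. SPARC, FN1, COL1A1 and TNC lead, and COL1A2, SPP1, IGFBP3, COL18A1 and BGN have libraries at 0.

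Partner chains of the same collagen were not at the same level. COL1A1 had 1821 reads over all libraries and COL1A2 had 10, a ratio per length of 156 (95% interval 84.5 to 326, exact binomial, counting error only). Of the 10 COL1A2 reads, 5 were in the zdna4 CC libraries set apart above, and zdna1 CC and zdna1 CL each held 0. COL5A1 exceeded COL5A2 5.09-fold (3.76 to 7.03) and COL4A2 exceeded COL4A1 3.50-fold (2.96 to 4.14). COL6A1 and COL6A2, in contrast, were at a ratio of 1.08 (0.926 to 1.27), and the third type VI chain, COL6A3, was 2.70-fold (2.31 to 3.16) below COL6A1. COL3A1, the chain of type III collagen, had 78 reads.

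The bone-specific members were low. RUNX2 had 55 reads in 15 of the 16 libraries (mean 27.8 CPM), ALPL had 15 reads in 11 libraries and SPP1 had 7 reads in 5. The zdna4 CC libraries held 3 of the SPP1 reads. Of the later osteoblast genes looked at beside the list, BGLAP and IBSP (bone sialoprotein) had 0 reads over all 16 libraries, which allows a level of up to 1.49 CPM, and SP7 (osterix, a transcription factor downstream of RUNX2) had 1 read. The labelled osteosarcoma line therefore showed SPARC and COL1A1 at high levels and products of mineralising osteoblasts at or near 0. RUNX2 was detected at a low level, below the mean of 50 CPM needed for a test. Among the 2 insulin-like growth factor binding proteins of the list, IGFBP5 had 533 reads and IGFBP3 had 2.

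A gene was tested when its mean over all libraries was at least 50 CPM: 29 of the 40 members passed, among 4632 human genes. The other 11 (COL1A2, COL3A1, COL5A2, COL7A1, COL18A1, FBN1, BGN, SPP1, RUNX2, ALPL and IGFBP3) held 2 to 90 reads in all 16 libraries together and are given by level only. Tests were limma's moderated tests on log2(CPM + 10) in 1 fit of all 16 libraries, adjusted by Benjamini and Hochberg over the 4632 genes and called at 0.05. Every log2 change below is on that scale, which understates changes of low genes, and is given with its standard error. Changes are relative to the bulk of genes: on the scale of the deposited values the median of all tested genes was -1.48 in zdna3 over zdna1, -1.36 in zdna3 over zdna2 and 1.38 in zdna4 over zdna3, and there the directions given below for COL4A1 and COL4A2 in zdna3 over zdna1, and for all 8 members called in zdna3 over zdna2 other than COL4A1 and COL11A1, were reversed, as were COL4A2, EXTL3 and LAMB1 in zdna4 over zdna3. Fewer cells that express a gene and less RNA per cell cannot be told apart in these values.

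CL was compared with CC within each number. In zdna1, 3 of the 29 tested members were higher in CL (IGFBP5, COL5A1 and EXTL3) and 0 were lower; over all tested genes the share called was 0.756% (0.497% higher). The median log2 change of the 29 was 0.36, against -0.0037 over all tested genes, and 25 of the 29 changes were above 0. In 20 members both CL libraries lay above both CC libraries and in 0 both lay below, where 41.8% of all tested genes had arms that did not overlap. The members without overlap numbered 13 in zdna2 (3 higher in CL, 10 lower; 35% of all genes), 14 in zdna3 (12 higher, 2 lower; 34%) and 16 in zdna4 (10 higher, 6 lower; 44.2%). Over all 4 numbers pooled, 0 members had CL and CC libraries without overlap (0.0216% of all genes). In zdna2, 1 member was called (COL27A1, higher in CL; background 0.173%), and the members' median was -0.11. In zdna3, limma called 0 members, edgeR and DESeq2 also 0, and 3 members had an unadjusted p under 0.05 (background 0.0864%, 0.0216% higher and 0.0648% lower). In zdna4, 2 members were called (EXTL3 and SPARC, both higher in CL; background 1.17%, 0.907% higher and 0.259% lower), with a median of 0.063 over the members and 0.079 over all tested genes. The zdna4 count rose without a zdna4 CC library and fell without a zdna4 CL library. In such fits the lone library of a group is assumed to vary like the other groups. Zdna4 CC had the lowest weight (0.303), so that rise is no added support. Changes in the zdna1 arms rose with the GC content of the transcript across 4602 tested genes (Pearson r = 0.25, a description), and with a correction for GC content, chosen after seeing the data, the members' median in zdna1 was 0.18. With that correction EXTL3 and IGFBP5 were called in zdna1 but not COL5A1 (adjusted p = 0.117), and in zdna4 neither EXTL3 (0.123) nor SPARC (0.175) was called.

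IGFBP5, which binds insulin-like growth factors and is abundant in bone matrix, had the smallest p of the 3 members called in zdna1. IGFBP5 carried 88.7 and 148 CPM in zdna1 CC and 314 and 437 CPM in zdna1 CL, 235 and 168 CPM in zdna2 CC and 112 and 143 CPM in zdna2 CL, 178 and 214 CPM in zdna3 CC and 212 and 182 CPM in zdna3 CL, and 162 and 238 CPM in zdna4 CC and 378 and 482 CPM in zdna4 CL. The CL libraries were thus far above CC in zdna1 and zdna4, below CC in zdna2, and within the CC range in zdna3. The CL over CC change was 1.61 ± 0.25, adjusted p = 2.61e-05 in zdna1 by limma, and the 4 changes were not equal (adjusted p = 0.000362). In zdna4, where the arms also did not overlap, the adjusted p was 0.241. Leaving out zdna1 CC replicate 1 gave an adjusted p of 0.0829 in zdna1, and the call held without any of the other 3 libraries. The gene lies on chr2:217536828-217560272, minus strand, in hg19. The 100 bases before its RefSeq start (chr2:216695550-216695649 of GRCh38.p14, minus strand) are shown because no other member had a smaller p between arms, and those of SPARC because it leads the list in level. In all the promoter sequences below, capitals mark, on either strand, the GC box GGGCGG, the box known as CCAAT, the E-box CACGTG that MYC binds, the alternating stretch CGCGCG, or the TATA box TATAAA, and no such match occurs in the 2 sequences printed here.
IGFBP5: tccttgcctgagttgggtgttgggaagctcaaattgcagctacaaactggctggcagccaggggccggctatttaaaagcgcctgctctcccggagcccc
SPARC: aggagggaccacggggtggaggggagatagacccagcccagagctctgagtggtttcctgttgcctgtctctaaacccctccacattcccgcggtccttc

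SPARC, shown above by the 100 bases before its start (chr5:151686916-151687015 of GRCh38.p14, minus strand), was the most abundant member per length. SPARC carried 745 and 878 CPM in zdna1 CC and 908 and 938 CPM in zdna1 CL, 673 and 695 CPM in zdna2 CC and 684 and 716 CPM in zdna2 CL, 731 and 691 CPM in zdna3 CC and 1047 and 961 CPM in zdna3 CL, and 486 and 687 CPM in zdna4 CC and 957 and 1063 CPM in zdna4 CL. In zdna1, zdna3 and zdna4 both CL libraries exceeded both CC libraries, whereas in zdna2 the arms overlapped. The change was 0.79 ± 0.22, adjusted p = 0.0495 in zdna4 and 0.38 ± 0.09, adjusted p = 0.0339 when the 4 numbers were averaged. Neither call held throughout: the zdna4 adjusted p rose to 0.202 and 0.381 without zdna4 CL replicate 1 or 2, and the average over zdna1 to zdna3 alone was 0.24 (adjusted p = 0.522). SPARC lies on chr5:151040657-151066476, minus strand, in hg19.

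EXTL3, a glycosyltransferase that starts heparan sulfate chains on core proteins such as perlecan and syndecans, was called in zdna1, in zdna4 and on average. EXTL3 carried 213 and 205 CPM in zdna1 CC and 391 and 399 CPM in zdna1 CL, 187 and 214 CPM in zdna2 CC and 244 and 240.4 CPM in zdna2 CL, 321 and 309.6 CPM in zdna3 CC and 398 and 377 CPM in zdna3 CL, and 81.0 and 132 CPM in zdna4 CC and 278 and 263 CPM in zdna4 CL. Both CL libraries were above both CC libraries in each of the 4 numbers. By limma the change was 0.89 ± 0.22, adjusted p = 0.0223 in zdna1, 1.30 ± 0.35, adjusted p = 0.0454 in zdna4, and 0.69 ± 0.15, adjusted p = 0.00846 on average. The averaged call held in all 16 fits that left out 1 library, but the average over zdna1 to zdna3 alone was 0.48 (adjusted p = 0.300). The zdna1 call was lost without any 1 of its 4 libraries (adjusted p 0.199 to 0.331). In zdna4 the call was lost without CL replicate 1 (0.266) or CL replicate 2 (0.264), and edgeR gave 0.133. No other enzyme of heparan sulfate synthesis was called in an arm comparison: 7 of the 24 listed were tested, with EXT1 and EXT2 (the polymerase) among them. On average over the numbers, the background was 0.432% of tested genes, and 2 of 29 members (EXTL3 and SPARC) passed.

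Of the fibrillar collagen chains, COL5A1 was called between arms in zdna1 and COL27A1 in zdna2. COL5A1 carried 106 and 103 CPM in zdna1 CC and 237 and 266 CPM in zdna1 CL, 73.0 and 99.3 CPM in zdna2 CC and 62.8 and 109 CPM in zdna2 CL, 214 and 95.3 CPM in zdna3 CC and 199 and 243 CPM in zdna3 CL, and 135 and 238 CPM in zdna4 CC and 166 and 169.7 CPM in zdna4 CL. COL5A1, a chain that starts and limits the width of collagen fibrils, was thus more than 2-fold higher in CL in zdna1, overlapped between arms in zdna2, zdna3 and zdna4, and was called in zdna1 (1.19 ± 0.29, adjusted p = 0.0234). That call was lost without any 1 of the 4 zdna1 libraries (adjusted p 0.200 to 0.343). The test that the 4 changes of COL5A1 are unequal gave an adjusted p of 0.367. COL27A1 carried 62.1 and 131 CPM in zdna1 CC and 97.8 and 146 CPM in zdna1 CL, 32.5 and 45.8 CPM in zdna2 CC and 175 and 126 CPM in zdna2 CL, 178 and 214 CPM in zdna3 CC and 186 and 231 CPM in zdna3 CL, and 162 and 264 CPM in zdna4 CC and 67.2 and 62.5 CPM in zdna4 CL. COL27A1, a fibrillar collagen of cartilage and early bone, had the arms apart in opposite order in zdna2, with CL high, and in zdna4, with CL low. The zdna2 change was 1.70 ± 0.33, adjusted p = 0.00297, and the 4 changes were unequal (adjusted p = 0.00698). Without zdna2 CC replicate 1 the zdna2 adjusted p was 0.207, and without zdna2 CL replicate 1 it was 0.593. Without zdna4, the test of unequal changes gave an adjusted p of 0.343.

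DAG1 encodes dystroglycan, the receptor that ties laminin, agrin and perlecan to the cell surface. DAG1 carried 213 and 188 CPM in zdna1 CC and 272 and 266 CPM in zdna1 CL, 114 and 176 CPM in zdna2 CC and 55.8 and 68.7 CPM in zdna2 CL, 232 and 167 CPM in zdna3 CC and 106 and 146 CPM in zdna3 CL, and 81.0 and 158 CPM in zdna4 CC and 368 and 326 CPM in zdna4 CL. CL libraries were below CC in zdna2 and zdna3 and above CC in zdna1 and zdna4, without overlap in any of the 4. By limma no single number passed for DAG1 (smallest adjusted p = 0.0654, in zdna4, where edgeR did call it), whereas the 4 changes were unequal (adjusted p = 0.00431). That result was lost without zdna2 CC replicate 2 (adjusted p = 0.0569) and over zdna1 to zdna3 alone (0.195). Over all tested genes 0.864% had unequal changes, and among the members there were 3 of 29 (IGFBP5, DAG1 and COL27A1), of which IGFBP5 passed without zdna4 (adjusted p = 0.00226).

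**Figure D2:**
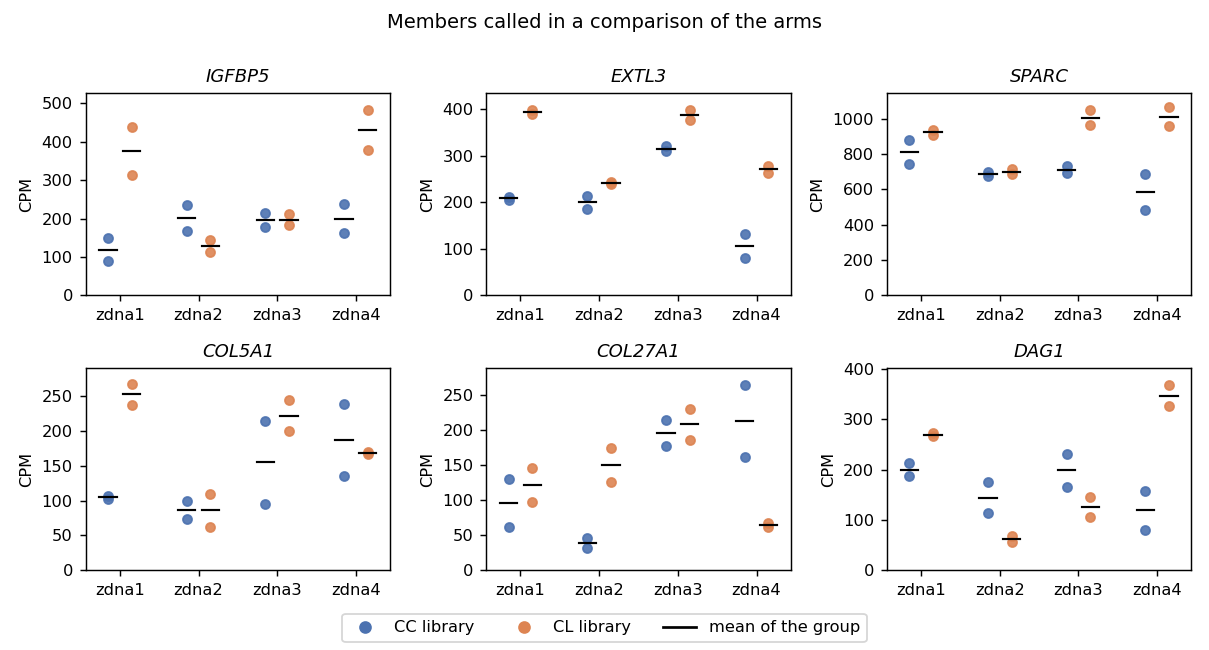
CPM in each library (points; blue CC, orange CL) and the group mean (black line) for the 6 members called in a comparison of the arms, by number. EXTL3 has CL above CC in all 4 numbers, whereas IGFBP5, COL27A1 and DAG1 change order between numbers.

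More members were called among the numbers, compared here as the mean of both arms. Of the 29 tested members, 14 differed among the 4 numbers (48.3%; background 8.85%): COL1A1, COL4A1, COL4A2, COL5A1, COL11A1, COL27A1, LAMA5, HSPG2, AGRN, DAG1, SDC3, FN1, PLOD1 and EXTL3. Against zdna1, zdna2 had 7 members lower and 0 higher (background 2.5%, 1.71% lower and 0.799% higher), with a median log2 change of -0.38 over the 29 and 0.0037 over all tested genes. Against zdna2, zdna3 had 8 members higher and 0 lower (background 6%, 2.81% higher and 3.2% lower), and zdna4 had 8 higher and 1 lower, FN1 (background 2.48%, 1.23% higher and 1.25% lower). Differences that did not involve zdna2 were fewer: 3 members in zdna3 over zdna1 (2 higher, 1 lower; background 4.49%, 2.22% higher and 2.27% lower), 5 in zdna4 over zdna3 (1 higher, 4 lower; background 4.75%, 1.84% higher and 2.91% lower) and 0 in zdna4 over zdna1 (background 0.691%, 0.237% higher and 0.453% lower). In that last comparison edgeR and DESeq2 also called 0, and 5 members had an unadjusted p under 0.05. Members whose libraries did not overlap between 2 numbers came to 7 in zdna2 over zdna1 (all lower; 6.63% of all genes), 7 in zdna3 over zdna1 (9.84%), 0 in zdna4 over zdna1 (4.75%), 9 in zdna3 over zdna2 (all higher; 12.4%), 7 in zdna4 over zdna2 (all higher; 8.53%) and 9 in zdna4 over zdna3 (10.6%). These pairs share libraries, so the counts are not independent of each other. The list was chosen with earlier results of these data known. These shares, the medians and the order of the numbers below are therefore a description and no support.

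Zdna2 had the lowest mean of the 4 numbers in 21 of the 29 members (72.4%), compared with 20.4% of all tested genes. Among CL libraries alone it was again lowest in 21 (26.2% of all tested genes) and among CC libraries alone in 12 (17.6%). The members are rich in guanine and cytosine (GC): the median GC content of their longest transcript was 55.1%, against 46.8% over 4602 tested genes, and across those genes the zdna2 over zdna1 change fell with GC content (Pearson r = -0.37, a description across genes of the same libraries) and the zdna3 over zdna2 change rose with it (r = 0.38). Of tested genes with at least 55% GC, 39.1% were lowest in zdna2. After a per-library correction for GC content, chosen after seeing the data, zdna2 was lowest in 17 of the 29 members (58.6%; 21.4% of all genes), and the median zdna2 over zdna1 change of the members was -0.30. With the correction the members called were 2 in zdna2 over zdna1 (DAG1 and HSPG2), 5 in zdna3 over zdna2, 6 in zdna4 over zdna2 and 11 among the 4 numbers, all 11 of them among the 14 above. In zdna2 over zdna1 the corrected change was -0.21 for COL1A1 (adjusted p = 0.319), -0.28 for AGRN (0.522), -0.70 for LAMA5 (0.111), -0.66 for COL5A1 (0.107) and -0.66 for PLOD1 (0.0886), none of them called. In zdna3 over zdna2 it was 0.27 for COL1A1 (adjusted p = 0.237), 0.76 for COL5A1 (0.127), 0.71 for COL6A3 (0.102) and 0.65 for EXTL3 (0.0595). In zdna4 over zdna2 it was 0.54 for AGRN (0.240), 0.87 for COL5A1 (0.0956) and -0.26 for FN1 (0.163). In zdna4 over zdna3 it was -0.89 for LAMB1 (0.0823) and -0.66 for COL4A2 (0.0990). None of these was called, whereas FN1 and HSPG2 were called in zdna4 over zdna3 only with the correction.

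**Figure D3:**
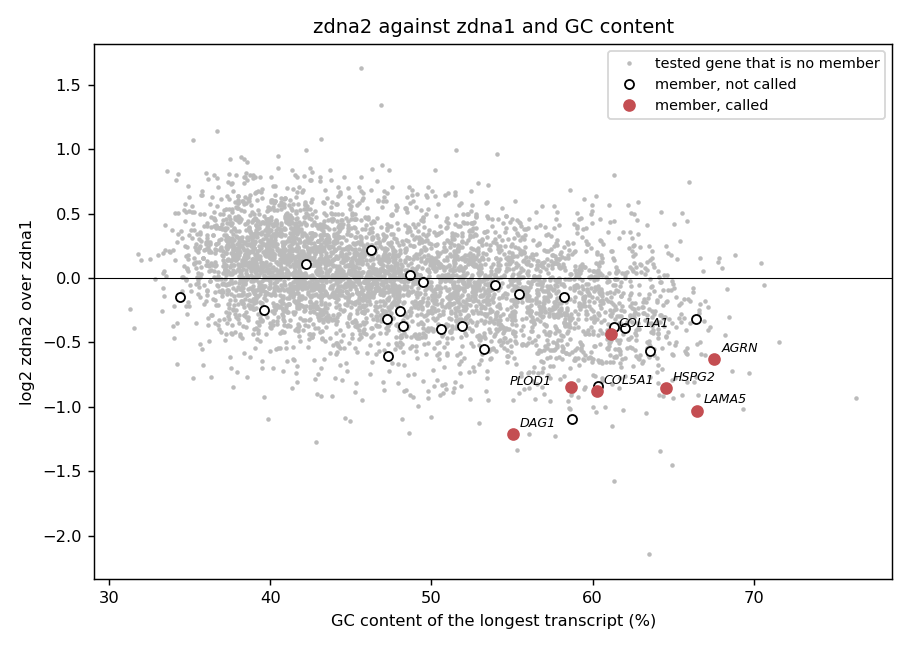
Log2 change of zdna2 over zdna1 against the GC content of the longest transcript, for tested genes that are no members (grey), members not called (open) and the 7 members called (red). Changes of all genes fall with GC content (r = -0.37), and the 7 called members lie at 55% GC or more.

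Of the 7 members lower in zdna2 than in zdna1, HSPG2, LAMA5 and AGRN encode basement membrane components, whereas COL4A1, COL4A2, LAMB1, LAMB2 and LAMC1 were not called there. HSPG2 carried 293 and 262 CPM in zdna1 CC and 363 and 406 CPM in zdna1 CL, 154 and 237 CPM in zdna2 CC and 139.6 and 189 CPM in zdna2 CL, 214 and 214 CPM in zdna3 CC and 331 and 255 CPM in zdna3 CL, and 405 and 502 CPM in zdna4 CC and 362 and 406 CPM in zdna4 CL. HSPG2, which encodes perlecan, a large heparan sulfate proteoglycan, was lower in every zdna2 library than in any zdna1 library (-0.85 ± 0.15, adjusted p = 0.000222). It was higher in zdna4 than in zdna2 (1.19 ± 0.21, adjusted p = 0.000214), again with no overlap. LAMA5 carried 142 and 137 CPM in zdna1 CC and 251 and 196 CPM in zdna1 CL, 73.0 and 99.3 CPM in zdna2 CC and 48.9 and 120.2 CPM in zdna2 CL, 160.5 and 71.4 CPM in zdna3 CC and 199 and 85.2 CPM in zdna3 CL, and 162 and 158 CPM in zdna4 CC and 301 and 308 CPM in zdna4 CL. LAMA5, an alpha chain of basement membrane laminins, also had every zdna2 library below every zdna1 and zdna4 library, with changes of -1.03 ± 0.23, adjusted p = 0.00381 for zdna2 over zdna1 and 1.34 ± 0.30, adjusted p = 0.00743 for zdna4 over zdna2. AGRN carried 213 and 279 CPM in zdna1 CC and 321 and 482 CPM in zdna1 CL, 227 and 145 CPM in zdna2 CC and 188 and 240.4 CPM in zdna2 CL, 267 and 262 CPM in zdna3 CC and 318 and 328 CPM in zdna3 CL, and 378 and 343 CPM in zdna4 CC and 256 and 419.7 CPM in zdna4 CL. AGRN (agrin, a heparan sulfate proteoglycan that binds laminin and dystroglycan) had zdna2 libraries that overlapped with zdna1 and lay below every zdna4 library. AGRN changed by -0.63 ± 0.17, adjusted p = 0.0280 in zdna2 over zdna1. In zdna4 over zdna2 it changed by 0.77 ± 0.23, adjusted p = 0.0481.

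Their receptor DAG1, listed by library above, changed by -1.21 ± 0.19, adjusted p = 1.73e-05 in zdna2 over zdna1 and by 1.01 ± 0.26, adjusted p = 0.0210 in zdna4 over zdna2. The first value was -1.96 in CL libraries alone and -0.47 in CC libraries alone, and the second was 2.31 and -0.29. LAMB1, a beta chain, was lower in zdna4 than in zdna3 (-0.98 ± 0.30, adjusted p = 0.0413).

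The collagen-modifying enzyme PLOD1 and the main fibrillar chain COL1A1 also had their lowest means in zdna2. PLOD1 carried 168 and 194 CPM in zdna1 CC and 258 and 184 CPM in zdna1 CL, 114 and 138 CPM in zdna2 CC and 126 and 63.0 CPM in zdna2 CL, 125 and 167 CPM in zdna3 CC and 159 and 109 CPM in zdna3 CL, and 378 and 264 CPM in zdna4 CC and 195 and 209.9 CPM in zdna4 CL. PLOD1, which hydroxylates lysines that later carry crosslinks, was below zdna1 in every zdna2 library (-0.85 ± 0.20, adjusted p = 0.00853) and higher in zdna4 than in zdna2 (1.18 ± 0.27, adjusted p = 0.00743). COL1A1 carried 798 and 816 CPM in zdna1 CC and 964 and 982 CPM in zdna1 CL, 592 and 688 CPM in zdna2 CC and 635 and 698 CPM in zdna2 CL, 659.8 and 881 CPM in zdna3 CC and 1207 and 1119 CPM in zdna3 CL, and 917 and 924 CPM in zdna4 CC and 1091 and 1125 CPM in zdna4 CL. Every zdna2 library of COL1A1 was below every zdna1 and every zdna4 library. Its changes were -0.44 ± 0.09, adjusted p = 0.00187 for zdna2 over zdna1, 0.52 ± 0.12, adjusted p = 0.00404 for zdna3 over zdna2 and 0.62 ± 0.12, adjusted p = 0.00147 for zdna4 over zdna2. COL5A1 was lower in zdna2 than in zdna1 (-0.88 ± 0.21, adjusted p = 0.00888), zdna3 (1.00 ± 0.28, adjusted p = 0.0202 for zdna3 over zdna2) and zdna4 (0.96 ± 0.28, adjusted p = 0.0456 for zdna4 over zdna2). COL6A3 was higher in zdna3 than in zdna2 (0.82 ± 0.25, adjusted p = 0.0339), as was EXTL3 (0.64 ± 0.21, adjusted p = 0.0486). IGFBP5 was higher in zdna4 than in zdna2 (0.83 ± 0.24, adjusted p = 0.0473), with changes of 1.68 in CL and -0.018 in CC libraries alone. PLOD2, LOX and LOXL2, the other collagen-modifying enzymes tested, and TNC, COL12A1, COL6A1, COL6A2, FBN2, LAMC1, LAMB2 and TGFBI were called by limma in none of the 13 comparisons of all libraries. Other fits called some of them: edgeR called TGFBI among the numbers, in zdna3 over zdna2 and in zdna4 over zdna3, the fit corrected for GC content called PLOD2 in zdna3 over zdna2, and CL libraries alone called COL6A1, LAMB2, LOX and TGFBI among the numbers, COL6A1 and LAMB2 in zdna2 over zdna1, and LAMB2 and LOX in zdna4 over zdna2. TGFBI passed the filter on low values only through zdna3 (number means of 48.2, 30.2, 98.0 and 31.6 CPM), so these calls of it are a description.

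These calls differed in how much they rested on 1 library and on 1 arm. In a fit without 1 library, the lone library of that group was assumed to vary like the other groups. Zdna4 CC and zdna3 CC had the lowest weights (0.303 and 0.429), so a higher count without one of their libraries is no added support. In zdna2 over zdna1, DAG1, HSPG2 and COL1A1 held in all 8 fits that left out a library (COL1A1 not under the GC correction, above), LAMA5 in 6, COL5A1 and PLOD1 in 4 and AGRN in 3, and without zdna2 CL replicate 1 the count was 4. In zdna3 over zdna2, COL1A1, COL4A1, COL4A2 and COL27A1 held in all 8, COL5A1 and COL11A1 in 6, COL6A3 in 5 and EXTL3 in 3. In zdna4 over zdna2, HSPG2 and COL1A1 held in all 8, LAMA5 and PLOD1 in 6, DAG1, AGRN and FN1 in 4, and COL5A1 and IGFBP5 in 3. LAMB1 in zdna4 over zdna3 held in 4 of 8. CL libraries alone gave 12 members in zdna2 over zdna1 (all 7 above among them; background 3.73%) and 20 that differed among the numbers (background 12.4%). CC libraries alone gave 0 in zdna2 over zdna1 (background 0.194%). The CC libraries of these numbers held 111166 to 170980 human gene reads, and their CL libraries 137628 to 168213. Among the numbers, where the zdna3 and zdna4 CC libraries are shallower, CC libraries alone gave 2, COL27A1 and COL4A2 (background 1.36%). In CC libraries HSPG2, LAMA5, PLOD1, COL1A1, COL5A1, AGRN and DAG1 had negative zdna2 over zdna1 values, from -0.27 to -0.65. They were called in a fit that holds the same CC libraries, so this sign is no separate support. Other members, LOX and IGFBP5 among them, had values above 0 there. In CL libraries alone the 7 called members had zdna2 over zdna1 values from -0.54 (COL1A1) to -1.96 (DAG1). Whether the arms differ in the changes among the numbers was tested over all 4 numbers at once by the test of unequal changes, which called 3 members, given above. For zdna4 over zdna2 the count was 15 without zdna4 CC replicate 1, 5 without zdna2 CC replicate 2 or zdna2 CL replicate 2, 3 without zdna2 CL replicate 1, 2 without zdna4 CL replicate 2, and 13 in CL libraries alone (background 9.65%). For zdna3 over zdna2 it was 5 without zdna2 CC replicate 1 or zdna2 CL replicate 1, and for zdna3 over zdna1 it was 6 without zdna3 CC replicate 1. For zdna4 over zdna3 it was 2 and 3 without zdna4 CL replicate 1 and 2, and 8 without zdna3 CC replicate 1 or either zdna4 CC library. For zdna4 over zdna1 it was 5 and 4 without zdna4 CC replicate 1 and 2.

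Promoter sequences are shown for the 3 members whose libraries in zdna2 were all below those in zdna1 and all below those in zdna4, and whose promoter is in the RefSeq table used: HSPG2 (chr1:21937311-21937410, minus strand), LAMA5 (chr20:62367313-62367412, minus strand) and PLOD1 (chr1:11934617-11934716, plus strand), each as the 100 bases before the start in GRCh38.p14.
HSPG2: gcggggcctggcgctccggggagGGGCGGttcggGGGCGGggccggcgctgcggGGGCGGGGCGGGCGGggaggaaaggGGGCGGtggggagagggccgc
LAMA5: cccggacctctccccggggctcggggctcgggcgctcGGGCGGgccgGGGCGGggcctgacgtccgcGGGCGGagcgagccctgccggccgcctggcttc
PLOD1: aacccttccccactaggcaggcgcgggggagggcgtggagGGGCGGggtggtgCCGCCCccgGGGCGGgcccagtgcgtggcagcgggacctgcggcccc
The 3 stretches are 87.0%, 85.0% and 81.0% GC and hold GGGCGG 6, 3 and 3 times on either strand. GGGCGG occurred within 250 bases before the start in 27 of the 32 members with a promoter in the table (84.4%) and in 46.2% of 27305 genes. Those 27305 are all genes of the table, expressed here or not, and not the tested genes used as background above. They were not matched to the members for level or GC content. CCAAT occurred in 8 of the 32 (25%, against 37%), CACGTG in 2 (6.25%, against 7.73%), CGCGCG in 9 (28.1%, against 16.6%) and TATAAA in 4 (12.5%, against 13.1%). These are matches of letters, searched after the values were known, and members with several starts counted if any start matched.

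**Figure D4:**
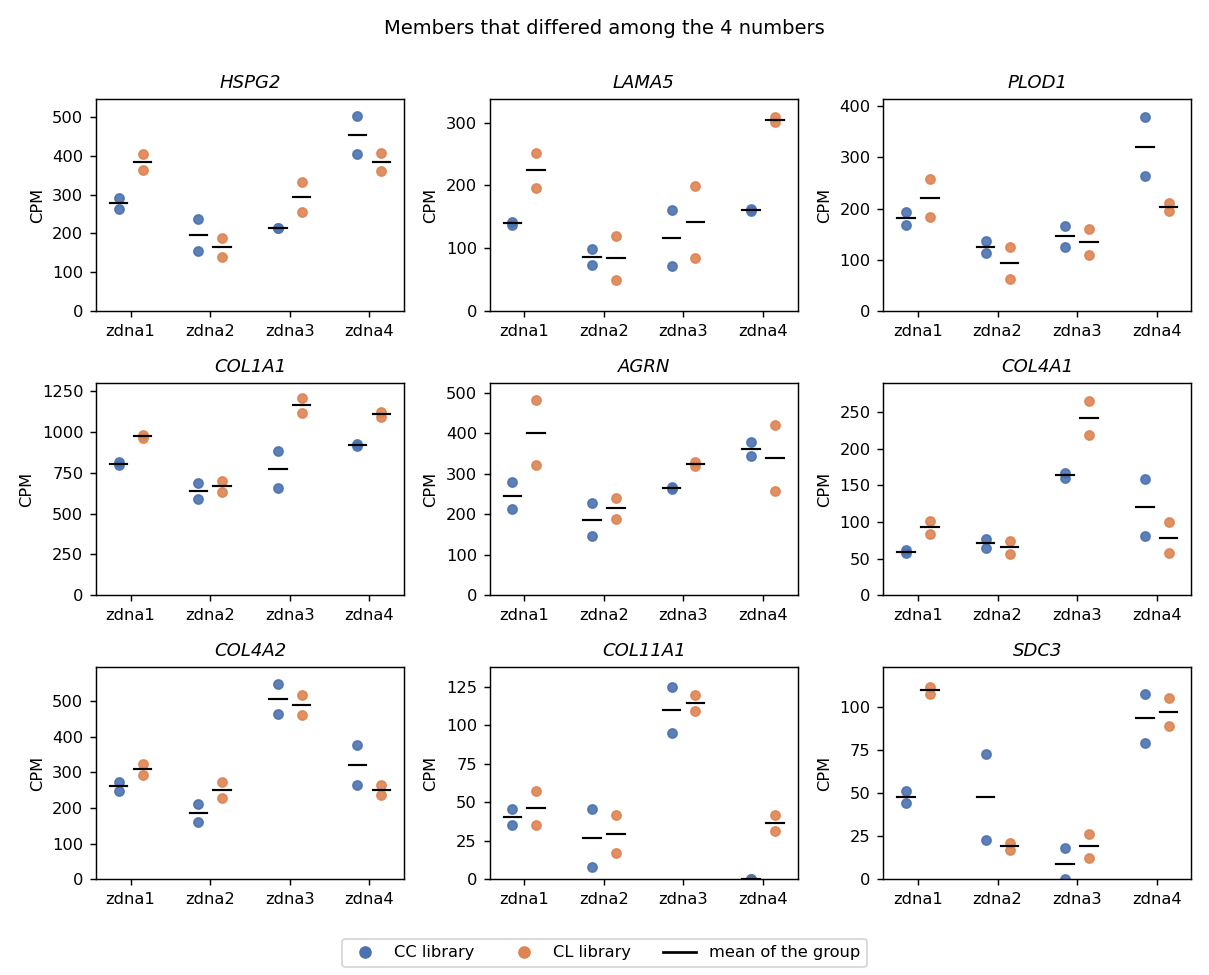
CPM in each library (points; blue CC, orange CL) and the group mean (black line) for 9 of the members that differed among the numbers. HSPG2, LAMA5, PLOD1, COL1A1 and AGRN have their lowest means in zdna2, and COL4A1, COL4A2 and COL11A1 their highest in zdna3.

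Type IV collagen, the network-forming collagen of basement membranes, was highest in zdna3. COL4A1 carried 62.1 and 57.0 CPM in zdna1 CC and 83.8 and 101 CPM in zdna1 CL, 64.9 and 76.4 CPM in zdna2 CC and 55.8 and 74.4 CPM in zdna2 CL, 160.5 and 167 CPM in zdna3 CC and 265 and 219 CPM in zdna3 CL, and 81.0 and 158 CPM in zdna4 CC and 99.2 and 58.0 CPM in zdna4 CL. COL4A2 carried 248 and 274 CPM in zdna1 CC and 293 and 323 CPM in zdna1 CL, 211 and 160.4 CPM in zdna2 CC and 272 and 229 CPM in zdna2 CL, 464 and 548 CPM in zdna3 CC and 517 and 462 CPM in zdna3 CL, and 378 and 264 CPM in zdna4 CC and 237 and 263 CPM in zdna4 CL. All 4 zdna3 libraries exceeded all zdna1 and zdna2 libraries for both chains. In zdna3 over zdna1, COL4A1 changed by 1.31 ± 0.33, adjusted p = 0.00864 and COL4A2 by 0.79 ± 0.19, adjusted p = 0.00685. In zdna3 over zdna2 the values were 1.43 ± 0.33, adjusted p = 0.00325 for COL4A1 and 1.17 ± 0.19, adjusted p = 1.66e-05 for COL4A2. COL4A2 was lower in zdna4 than in zdna3 (-0.80 ± 0.23, adjusted p = 0.0313), a call lost without zdna4 CL replicate 1 or 2 (adjusted p = 0.0955 and 0.0572). The calls of zdna3 against zdna1 and against zdna2 held, for both chains, in all 8 fits that left out a library. In CL libraries alone the zdna3 over zdna1 values were 1.30 for COL4A1 (adjusted p = 0.0953) and 0.65 for COL4A2 (0.167), and in CC libraries alone 1.32 (0.230) and 0.92 (0.130).

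The 2 genes start back to back on chromosome 13 and are read in opposite directions, COL4A1 on the minus strand (110801310 to 110959504 in hg19) and COL4A2 on the plus strand (110959631 to 111165556). The 126 bases between the starts (chr13:110307158-110307283 of GRCh38.p14, plus strand, 80.2% GC), shown because both genes beside them were called in zdna3 over zdna1, hold 1 CCAAT, 1 GGGCGG and 1 CGCGCG.
COL4A1_COL4A2: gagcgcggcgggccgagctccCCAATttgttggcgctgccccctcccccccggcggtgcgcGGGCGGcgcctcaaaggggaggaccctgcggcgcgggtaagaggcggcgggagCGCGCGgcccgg

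Further members set zdna3 or zdna4 apart. COL11A1 carried 35.5 and 45.6 CPM in zdna1 CC and 34.9 and 57.0 CPM in zdna1 CL, 8.11 and 45.8 CPM in zdna2 CC and 41.9 and 17.2 CPM in zdna2 CL, 125 and 95.3 CPM in zdna3 CC and 119 and 109 CPM in zdna3 CL, and 0 and 0 CPM in zdna4 CC and 41.6 and 31.3 CPM in zdna4 CL. COL11A1, a minor fibrillar chain that copolymerises with type II and type V collagen, was higher in every zdna3 library than in any other library. Its mean over all libraries was just above the filter, with number means of 43.3, 28.3, 112 and 18.2 CPM from zdna1 to zdna4, so it was tested only through its level in zdna3 and had to differ there. Its differences and its place in the counts above are therefore a description and no support. By limma COL11A1 was higher in zdna3 than in zdna2 (1.82 ± 0.52, adjusted p = 0.0241) and lower in zdna4 than in zdna3 (-2.50 ± 0.63, adjusted p = 0.00912). COL11A1 had 0 reads in both zdna4 CC libraries, which at 80221 reads in all allows a level of up to 37.4 CPM, and its fitted change there depends on the pseudocount. In CL libraries alone zdna4 over zdna3 was -1.43 (adjusted p = 0.103). COL27A1 was higher in zdna3 than in zdna2 (1.27 ± 0.31, adjusted p = 0.00631), with changes of 2.08 in CC and 0.46 in CL libraries alone.

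SDC3 carried 44.3 and 51.3 CPM in zdna1 CC and 112 and 108 CPM in zdna1 CL, 73.0 and 22.9 CPM in zdna2 CC and 20.9 and 17.2 CPM in zdna2 CL, 17.8 and 0 CPM in zdna3 CC and 26.5 and 12.2 CPM in zdna3 CL, and 108 and 79.2 CPM in zdna4 CC and 106 and 89.3 CPM in zdna4 CL. SDC3, a heparan sulfate proteoglycan of the cell membrane, ran the other way, with zdna3 libraries below all zdna1 and zdna4 libraries. It passed the filter only through zdna1 and zdna4 (number means of 78.8, 33.5, 14.1 and 95.5 CPM from zdna1 to zdna4). The differences of SDC3 and its place in the counts above are therefore a description and no support. Its changes were -1.93 ± 0.48, adjusted p = 0.00853 in zdna3 over zdna1 and 2.27 ± 0.58, adjusted p = 0.0114 in zdna4 over zdna3, and in CL libraries alone they were -2.07 (adjusted p = 0.0337) and 1.91 (0.0178). The second call was lost without zdna4 CL replicate 1 (adjusted p = 0.0561). EXTL3 was lower in zdna4 than in zdna3 (-1.01 ± 0.25, adjusted p = 0.00767), and the change in CL libraries alone was -0.50 (adjusted p = 0.179). FN1, the most abundant member by CPM, was lower in zdna4 than in zdna2 (-0.36 ± 0.10, adjusted p = 0.0239). FN1 changed there by -0.42 in CL libraries alone (adjusted p = 0.00225) and by -0.26 with the GC correction (adjusted p = 0.163, not called). Its test among the 4 numbers was close to the threshold (adjusted p = 0.0473), and 9 of the 16 fits that left out a library lost it.

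**Figure D5:**
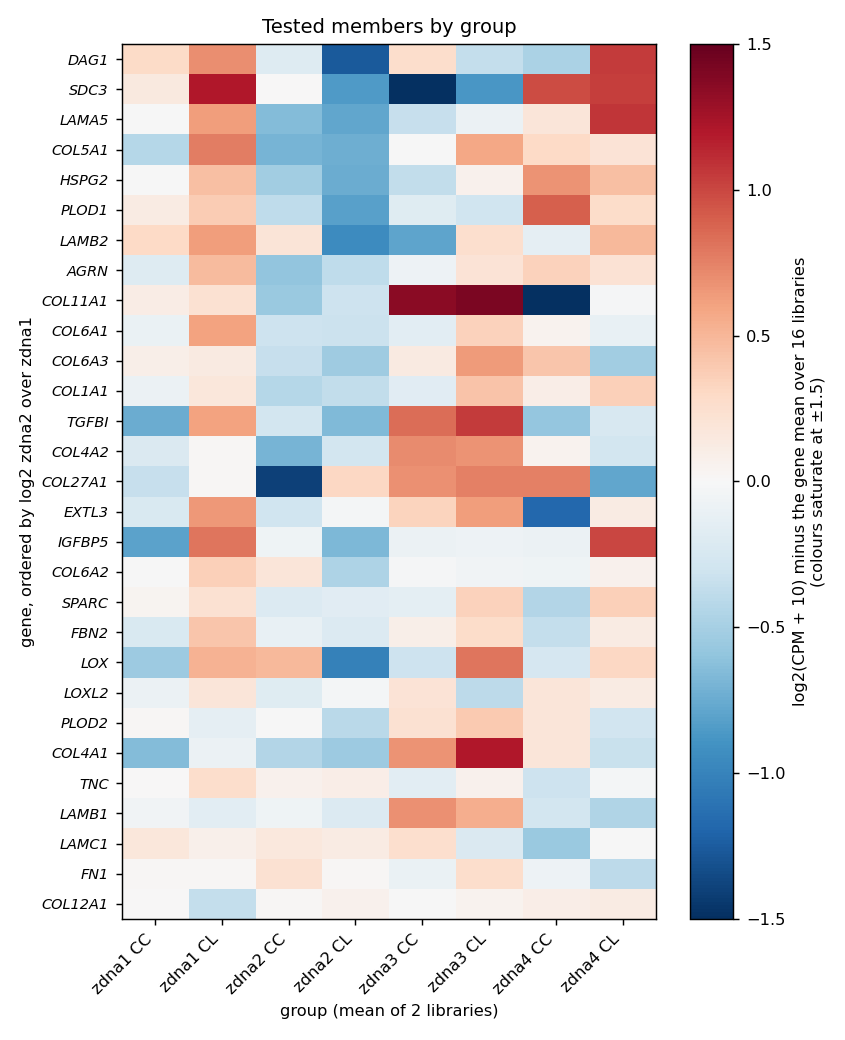
Mean log2(CPM + 10) of each group minus the mean of the gene over all 16 libraries, for the 29 tested members in order of their zdna2 over zdna1 change (colours saturate at ±1.5; red above, blue below the mean). The zdna2 columns are blue for most members at the top, the zdna3 columns are red for COL11A1, COL4A1, COL4A2 and COL27A1, and EXTL3 is blue in zdna4 CC.

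Other genes of the matrix pathway were taken from 7 lists of 243 genes in all. In the arm comparisons within a number, 2 of them were called, both higher in CL in zdna1 (background 0.756%), 1 of 16 tested other collagens, glycoproteins and proteoglycans and 1 of 16 tested integrins and other receptors: THBS1 (thrombospondin 1, a secreted glycoprotein that activates TGF-beta; 0.67 ± 0.11, adjusted p = 4.34e-05) and ITGA3 (the alpha chain of a laminin receptor; 0.69 ± 0.18, adjusted p = 0.0327). The ITGA3 call held in 1 of 4 fits that left out a library: the change was 0.37 (adjusted p = 0.919) without zdna1 CC replicate 1, 0.57 (0.549) without CL replicate 1 and 0.81 (0.139) without CL replicate 2, and with the GC correction it was 0.48 (0.285). The THBS1 call was lost without zdna1 CC replicate 2 (adjusted p = 0.0521). THBS1 carried 1028 and 827 CPM in zdna1 CC and 1459 and 1496 CPM in zdna1 CL, 909 and 947 CPM in zdna2 CC and 1291 and 1237 CPM in zdna2 CL, 2550.0 and 2738 CPM in zdna3 CC and 3023 and 2616 CPM in zdna3 CL, and 998 and 1004 CPM in zdna4 CC and 877 and 844 CPM in zdna4 CL. Every zdna3 library of THBS1 exceeded every other library (1.22 ± 0.10, adjusted p = 3.40e-13 for zdna3 over zdna1), and its 4 arm differences were unequal (adjusted p = 0.0423, kept in 6 of 16 fits that left out a library). In zdna3 over zdna1, CCN2 (connective tissue growth factor; 1.79 ± 0.21, adjusted p = 1.18e-08) and CCN1 (0.90 ± 0.17, adjusted p = 0.000187) were higher. Among the numbers, where 8.85% of all tested genes differed, 3 of 16 tested other collagens, glycoproteins and proteoglycans differed (THBS1, CCN1, CCN2), as did 3 of 16 integrins and other receptors (CD44, ITGB5, ITGA6), 1 of 13 collagen folding and processing genes (SERPINH1) and 1 of 4 insulin-like growth factor genes (IRS1). Of 7 heparan sulfate enzymes and 8 other bone genes tested, limma called 0 in every comparison, and at most 2 and 3 had an unadjusted p under 0.05 in any one of them. SERPINH1, a chaperone that binds procollagen, was lower in zdna2 than in zdna1 (-0.82 ± 0.23, adjusted p = 0.0358). That call held in 2 of 8 fits that left out a library (those without zdna2 CC replicate 2 or zdna2 CL replicate 2) and was lost with the GC correction (-0.67, adjusted p = 0.142). The collagen prolyl hydroxylases tested were not called there.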

How the data were processed

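RNA from 16 U2OS libraries was sequenced as total RNA, and 1 file of values per gene was deposited for each library. Per the file headers, the authors counted read pairs per gene with featureCounts 2.0.1, without a strand option, on hg19 plus a contig of the library's own number. Overlapping or antisense genes can therefore share reads. The submitters' processing notes also name Trim Galore 0.6.6, STAR and bedtools 2.29.2. The deposited signal values are whole reads multiplied by 1 constant per library, whose origin is not given in the sources used here. After division by that constant, 99.9888% or more of a library's values above 0 lay within 0.1 of a whole read. Reads in human genes were scaled to CPM with edgeR 4.0.16 TMM factors over 4632 genes, those averaging 50 CPM or more. Tests used limma 3.58.1 in R 4.3.3 on log2(CPM + 10), with a mean-variance trend, 1 weight per group and 8 group means in 1 fit, for 13 comparisons, two-sided, each adjusted by Benjamini and Hochberg over the 4632 genes. Differences between numbers weight both arms equally. The weights were lowest for zdna4 CC (0.303) and zdna3 CC (0.429) and highest for zdna4 CL (2.66). Exact binomial intervals and the 3-read limits cover counting error only.

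The 40 genes and the 7 other lists were chosen with earlier results of these data known. All members are accounted for: those that passed a comparison are printed with statistics there, and values in every library are given for members that passed a comparison of arms or had 1 of the 12 smallest p among the numbers. From each other list, up to 4 called genes per comparison could be named. A result on 2 genes of these other lists is not reported here. The correction for GC content (a loess curve on the GC content of the longest GENCODE transcript, removed in each library), the 55% GC threshold, the motifs and the printed sequences were chosen after seeing the data. Promoters came from RefSeq (GRCh38.p14) for 32 of the 40 members by symbol.

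Replicate numbers did not pair the libraries: correlations of same-numbered deviations ran from -0.0195 to 0.0431 over 28 pairs, with 0 above 0.1. The 2 libraries of zdna3 CC and those of zdna2 CL differed by no more than sampling noise (chi-square p = 0.798 and 0.0912), while those of the other 6 groups differed (p = 0.0016 to 0.0328). Their depths differ, and they were kept as 2 libraries each. Alternatives were edgeR's quasi-likelihood test and DESeq2 1.42.0 on the recovered reads, other scalings, filters and pseudocounts, fits on subsets of libraries, a replicate block, and leaving out each library in turn. The TMM scaling and the limma test were tried on simulated data, whereas edgeR's quasi-likelihood test and DESeq2 were not. Reads on the added contigs are not analysed here.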

Additional observations from a re-analysis of the deposited data

Results flagged for a closer look

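For 3 of the 29 tested members the CL over CC differences of the 4 numbers were unequal by limma's test of the interaction. The adjusted p was 0.000362 for IGFBP5, higher in CL in zdna1 and zdna4 and lower in CL in zdna2. It was 0.00431 for DAG1, higher in CL in zdna1 and zdna4 and lower in CL in zdna2 and zdna3. It was 0.00698 for COL27A1, higher in CL in zdna2 and lower in CL in zdna4. Without zdna4 the values were 0.00226, 0.195 and 0.343. Of the directions within a number, limma called only those of IGFBP5 in zdna1 and COL27A1 in zdna2. The other directions are a description. The part that the zdna4 CC libraries, with their high olfactory receptor reads, have in the DAG1 and COL27A1 results was not tested.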

How the results depend on the processing

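Counts of members called moved by over 1.5 times as follows, in each case with the cause not tested. In CC libraries alone, they were 2 among the numbers, 2 for zdna3 over zdna2 and 0 for zdna2 over zdna1, zdna3 over zdna1, zdna4 over zdna2 and zdna4 over zdna3, and DAG1 and IGFBP5 reversed in zdna4 over zdna2 (-0.29 and -0.018). In CL libraries alone, they were 12 for zdna2 over zdna1, 1 for zdna3 over zdna1, 1 for zdna4 over zdna1, 5 for zdna3 over zdna2 and 10 for zdna4 over zdna3. DESeq2 called 1 in the zdna1 arms, 0 in zdna2 and zdna4, 1 on average, 4 for zdna2 over zdna1, 5 for zdna3 over zdna2, 2 for zdna3 over zdna1 and 3 for zdna4 over zdna3, and edgeR called 5 for zdna3 over zdna1 and 9 for zdna4 over zdna3. The correction for GC content gave 0 in the zdna4 arms, 1 on average, 2 in the zdna1 arms, 2 for zdna2 over zdna1, 5 for zdna3 over zdna2 and 6 for zdna4 over zdna2. RLE factors, and a fit of only the 4 libraries compared, gave 0 in the zdna4 arms. A pseudocount of 2 gave 0 there, 1 on average and 3 for zdna4 over zdna3. Without array weights the counts were 1 in zdna1, 0 in zdna2, 4 in zdna4, 1 on average, 2 for zdna2 over zdna1 and 10 for zdna4 over zdna3. With no filter, which tests 21613 genes, they were 0 in zdna2 and zdna4, 0 on average, 0 for unequal arms, 4 among the numbers, 3 for zdna2 over zdna1, 1 for zdna3 over zdna1, 3 for zdna3 over zdna2, and 0 for zdna4 over zdna2 and zdna4 over zdna3. Over zdna1 to zdna3 alone the average gave 0 and the unequal arms 1.

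The replicate block gave 1 in the zdna4 arms and 13 among the numbers, and moved no other count of members called.

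On the deposited scale, without rescaling to reads per library, the median of all genes moved to -1.48 in zdna3 over zdna1, -1.36 in zdna3 over zdna2, 1.38 in zdna4 over zdna3, 0.72 in the zdna3 arms, 0.43 in the zdna4 arms, 0.34 on average and 0.15 in the zdna1 arms. Calls were then 15 in zdna3, 4 in zdna4, 14 on average, 8 for unequal arms, 25 among the numbers, 26 for zdna3 over zdna1, 22 for zdna3 over zdna2 and 24 for zdna4 over zdna3. Values reversed with that shift for CCN1 (-0.72), COL4A1 (-0.20), COL4A2 (-0.82), ITGB5 (-0.72) and THBS1 (-0.43) in zdna3 over zdna1. In zdna3 over zdna2 they reversed for CCN1 (-0.94), CCN2 (-0.13), CD44 (-0.89), COL1A1 (-0.99), COL27A1 (-0.15), COL4A2 (-0.32), COL5A1 (-0.39), COL6A3 (-0.60), EXTL3 (-0.83), ITGB5 (-0.29) and THBS1 (-0.21). In zdna4 over zdna3 they reversed for CCN1 (0.043), CD44 (0.38), COL4A2 (0.76), EXTL3 (0.53), ITGA6 (0.26), ITGB5 (0.10), LAMB1 (0.55), LAMB3 (0.68) and THBS1 (0.061).

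Leaving out 1 library at a time, a lone remaining library being assumed to vary like the other groups, counts ran from 0 to 1 in the zdna1 arms, 0 to 2 in zdna2, 0 to 1 in zdna3, 0 to 9 in zdna4, 1 to 4 on average and 2 to 8 for unequal arms (6 and 8 without zdna4 CC replicate 1 and 2). They ran from 11 to 20 among the numbers, 4 to 6 for zdna2 over zdna1, 3 to 6 for zdna3 over zdna1, 0 to 5 for zdna4 over zdna1, 5 to 12 for zdna3 over zdna2, 2 to 15 for zdna4 over zdna2 and 2 to 8 for zdna4 over zdna3. In the CC libraries of zdna3 and zdna4, 1 read was worth 18.0 to 25.4 CPM, which limits what can be seen there.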
